A study of Homo sapiens with 12 samples.

Results

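Gene expression in PANC-1 cells exposed to chaetocin and MLN8237 together was compared with expression in vehicle. The comparison takes every gene of the count table in 6 of the 12 RNA sequencing libraries, chosen by their labels: 3 libraries given 30 nM chaetocin plus 90 nM MLN8237 and 3 given DMSO, all harvested at 24 h. PANC-1 is an established human line from a pancreatic ductal carcinoma, and all libraries come from that 1 line. The other 6 libraries, 3 with 30 nM chaetocin alone and 3 with 90 nM MLN8237 alone, entered the model for its shared estimate of spread and are given beside the results. In the labels of the combination the second compound is written MLN3237, which was read as MLN8237 because the treatment protocol of the same samples names MLN8237. The labels call the conditions triplicate but do not say that the libraries came from separate cultures, so the p-values measure the spread between these libraries, which may be technical.

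Chaetocin is made by a fungus and carries disulfide bridges. It is known to block SUV39H1, which places the repressive methyl marks on lysine 9 of histone H3 in heterochromatin, and it also acts on thioredoxin reductase, an enzyme that keeps cysteines in proteins reduced. MLN8237, or alisertib, blocks Aurora A, the kinase that matures centrosomes and builds the mitotic spindle. Cells under oxidant or electrophile stress typically release the transcription factor NRF2 from its inhibitor KEAP1, and NRF2 then drives genes for glutathione, thioredoxin, iron storage and detoxification.

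The combination libraries held 58671039, 55189074 and 55033617 counts and the vehicle libraries 49439795, 56370345 and 57539126. Genes with at least 1 count numbered 33443, 31722 and 33407 with both compounds and 27987 to 29771 in vehicle. On the first principal component (59.9% of the variance) vehicle lay at 52.2 to 63.6 and the combination at -95.3, -50.8 and -89. Combination replicate 2 was therefore nearer to the chaetocin libraries (-46.4 to -37.3) than to the other 2 of its group. On the second component (14.6%) the treated libraries numbered 3 stood apart from the other libraries of their groups, at -28.1 with both compounds, -32.2 with chaetocin and -82.7 with MLN8237, and results are given without these libraries where they move. In deposited RPKM, which is scaled to gene length, vehicle cells held KRT8 at 433 ± 37.6 (SD, n = 3), KRT18 at 480 ± 40.7 and KRT19 at 170 ± 7.06, keratins of ductal epithelium, while the keratin KRT7 was at 0.958 ± 0.166. Of the acinar and endocrine marker genes none passed the filter on low counts. No source used here says how the counting treated strand, so reads from genes with overlapping spans cannot be told apart. Such overlaps were frequent, and a gene described without mention of one is not thereby free of it. Fewer cells expressing a gene and less RNA per cell cannot be told apart in these bulk samples.

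Of 22831 genes tested, 4599 (20.1%) rose and 4181 (18.3%) fell with both compounds, 8780 in all (38.5%), by edgeR's quasi-likelihood test at a Benjamini-Hochberg adjusted p under 0.05. A gene that passed this threshold is said to have risen, fallen or been called below. The median log2 change over all genes tested was 0.02, and the median standard error of a log2 change was 0.179. Changes beyond 2-fold were more often upward, with 2523 genes higher (11.1%) and 883 lower (3.87%). Without combination replicate 2 the counts were 4795 higher and 4299 lower, and without the treated libraries numbered 3 they were 5507 and 5348. Called or not, 6268 genes (27.5%) were higher and 6250 (27.4%) lower with no overlap between the libraries of the 2 groups.

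The direction of the calls went with the level in vehicle. Levels are given as CPM, counts scaled to the library's size by TMM but not to gene length. Of 1197 genes with a vehicle mean of up to 0.1 CPM, 75.1% rose and none fell, but such genes pass the filter only through libraries in which they are higher. Between 10 and 100 CPM 15.3% of 8355 genes rose and 26.6% fell. Over 100 CPM, 6.18% of 2411 genes rose and 36.0% fell. Counts for the gene lists below are to be read beside these shares and beside the 20.1% higher and 18.3% lower over all genes.

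**Figure D1:**
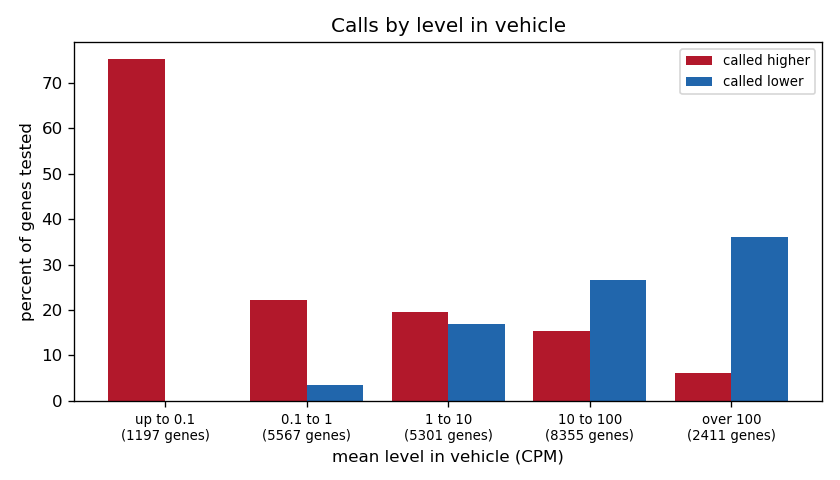
Percent of the genes tested that were called higher (red) or lower (blue) with both compounds, by the mean level in vehicle in CPM, with the number of genes under each pair of bars. The share called higher was 75.1% in the lowest class and 6.18% in the highest, and the share called lower was 0 and 36.0%.

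**Figure D2:**
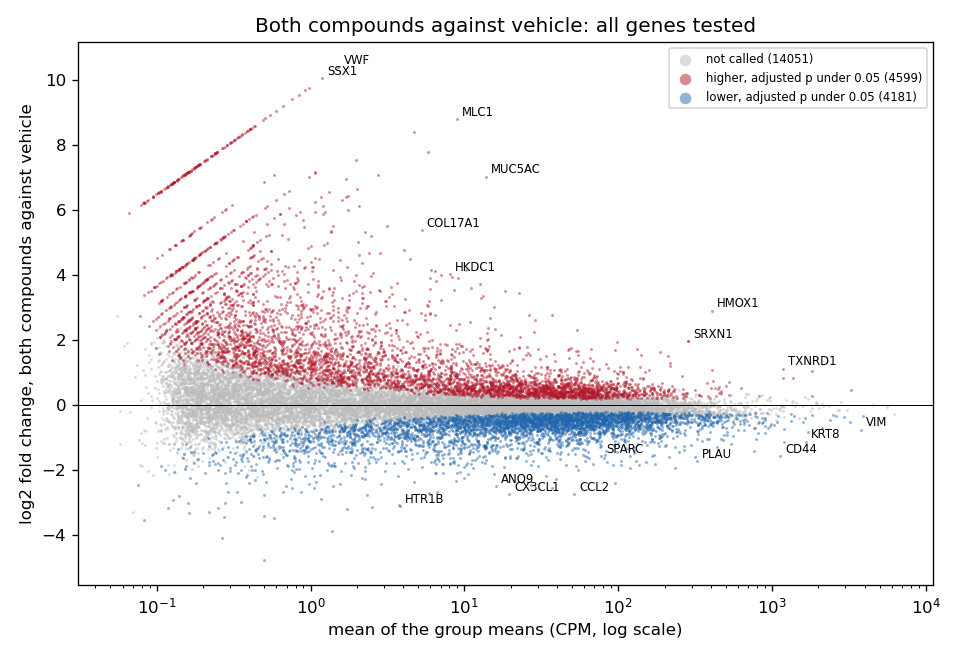
Log2 fold change with both compounds against vehicle for each of the 22831 genes tested (vertical axis) against the mean of the 2 group means in CPM (horizontal log axis), coloured by call. Red points, 4599 genes called higher, reach further from 0 than the 4181 blue ones, and the straight rows of points at the left are genes with few or no counts in vehicle, whose fitted change depends on the small count that edgeR adds.

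The 12 largest rises among genes that reached 5 CPM with both compounds began from vehicle means of at most 1.08 CPM. MLC1, which encodes a membrane protein of astrocytes (chr22:50497820-50524331, hg19), had 6 counts over the vehicle libraries and stood at 16.9, 8.13 and 28.4 CPM with both compounds. MUC5AC, a secreted gel-forming mucin of the stomach and airways (chr11:1151580-1222364, hg19), was at 0.126, 0.073 and 0.411 CPM in vehicle and at 27, 10.5 and 45.1 CPM with both. Its log2 change was 7.04 ± 0.72 (SE; adjusted p = 1.72e-05), and replicate 2 was the lowest of the 3 treated libraries for both genes. COL17A1, the hemidesmosome collagen of basal epithelium (chr10:105791044-105845760, hg19), went from 0.21, 0.255 and 0.268 to 12.8, 6.58 and 11.6 CPM, a log2 change of 5.38 ± 0.294 (adjusted p = 4.76e-07). The remaining genes by this rule were IGFN1, MAL, CYP4F11, PRRG2, WDR96, FHAD1, LAMA2, LUCAT1 and RP11-213H15.4. The spans of COL17A1, IGFN1, MAL, PRRG2, WDR96, FHAD1 and LAMA2 overlap other genes of the table. MAL, a lipid raft protein of polarised epithelium, averaged 11.6 ± 4.57 CPM with both compounds from 8 counts in all vehicle libraries, and LAMA2, a laminin chain, rose from 0.376 ± 0.0859 to 8.53 ± 2.6 CPM. LUCAT1, a long non-coding RNA, rose from 1.08 ± 0.41 to 19.3 ± 6.54 CPM, and RP11-213H15.4 overlaps it, so the reads of the pair cannot be assigned to 1 of them.

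Among the largest falls were 2 chemokines. CCL2, the chemokine that attracts monocytes (chr17:32582304-32584222, hg19), stood at 90.6, 75.7 and 104 CPM in vehicle and 11.3, 15.9 and 13.5 CPM with both compounds. CX3CL1, a membrane-bound chemokine (chr16:57406370-57418960, hg19), went from 30.9, 31.2 and 39.5 CPM to 4.64, 7.12 and 3.52 CPM. The groups were far apart in both genes, with log2 changes of -2.73 ± 0.221 (adjusted p = 3.31e-06) for CCL2 and -2.74 ± 0.21 (adjusted p = 2.4e-06) for CX3CL1. HTR1B, a serotonin receptor, showed the largest fall by this rule, from 7.19, 7.83 and 5.42 CPM to 0.638, 1.49 and 0.272 CPM, with a log2 change of -3.10 ± 0.494. The log2 change was -3.06 for PCDH18, a protocadherin, -2.40 for PLCH2, a phospholipase C, -2.45 for COL11A1, a fibrillar collagen chain, and -2.35 for SEMA6B, a transmembrane semaphorin. ANO8 and ANO9, members of the anoctamin family of channels and scramblases, had log2 changes of -2.70 and -2.49. MXRA5, B3GNT7 and ACOXL completed the rule. The spans of ANO8, ANO9, PLCH2, COL11A1, SEMA6B, ACOXL and CCL2 overlap other genes of the table.

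**Figure D3:**
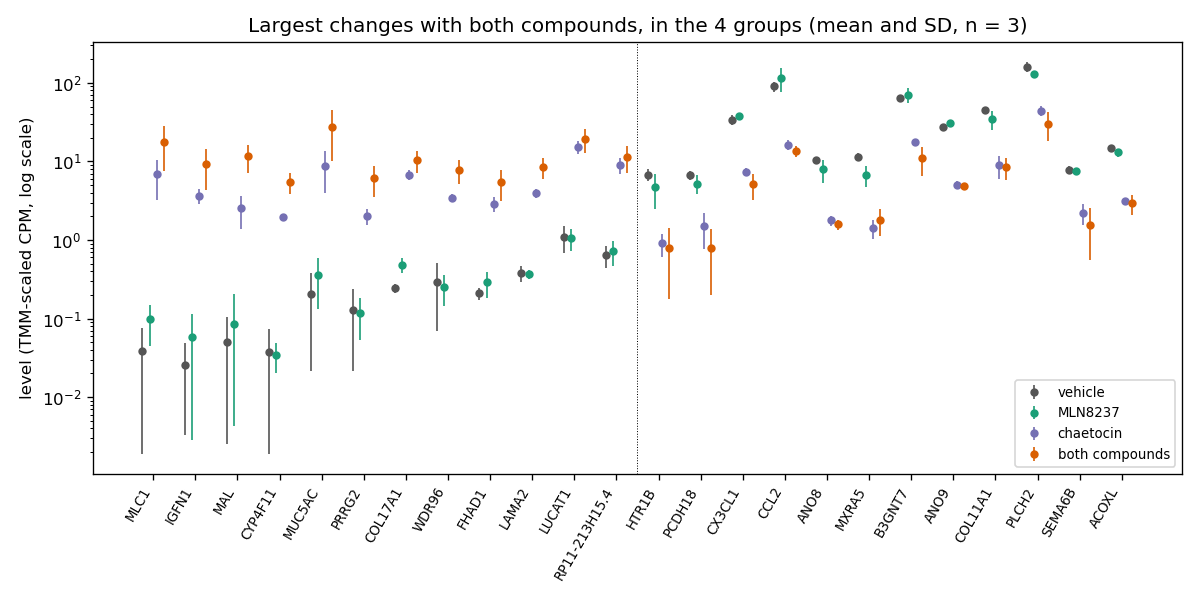
Mean level and SD (n = 3) of the 12 genes with the largest rises (left of the dotted line) and the 12 with the largest falls (right) in vehicle, MLN8237, chaetocin and both compounds, in CPM on a log axis, with bars that would reach 0 or less cut short. For CCL2 the means were 90 CPM in vehicle, 114 with MLN8237, 16.3 with chaetocin and 13.5 with both.

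Among the most abundant transcripts, the largest rises in CPM were in ferritin, thioredoxin reductase and mitochondrial ribosomal RNA. FTL, the ferritin light chain, was at 1150, 1011 and 1351 CPM in vehicle and 2133, 2206 and 3038 CPM with both. FTH1, the heavy chain, rose from 977.5 ± 137 to 1766 ± 262 CPM (log2 change 0.85 ± 0.258, adjusted p = 0.0189), a call lost in some alternatives, whose adjusted p reached 0.1. BEST1 overlaps FTH1 and gave nearly the same values, 836 ± 121 and 1510 ± 252 CPM, so its change cannot be told apart from that of FTH1. MT-RNR2, the large mitochondrial ribosomal RNA, rose from 2846, 2824 and 2592 CPM to 4048, 3556 and 3737 CPM (log2 change 0.46 ± 0.116, adjusted p = 0.00723). The largest falls in CPM were in genes of the cytoskeleton and surface: VIM, KRT8, ACTG1, CD44 and ACTN4. VIM, the intermediate filament of mesenchymal cells and of many carcinoma lines, was at 4914, 4525 and 4865 CPM in vehicle and 2374, 3346 and 2812 CPM with both compounds, a log2 change of -0.75 ± 0.121. ACTG1, cytoplasmic actin, and ACTN4, an actin crosslinker, had log2 changes of -0.51 and -0.70. The spans of VIM, ACTG1 and ACTN4 overlap other genes.

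Over 6 pooled lists of oxidant defence genes more rose than fell. The lists of NRF2 factors, glutathione, thioredoxin, NADPH, haem and iron, and detoxification genes held 75 distinct tested genes. Of these 39 rose and 10 fell, beside 20.1% higher and 18.3% lower over all genes. Their median log2 change was 0.49 beside 0.02 over all genes. A further list, glutathione peroxidases and other oxidant defence genes, was not pooled with them, and 4 of its 12 rose and 4 fell. HMOX1, haem oxygenase (chr22:35776354-35790207, hg19), was at 86.6, 76.3 and 123 CPM in vehicle and 702, 614 and 834 CPM with both compounds. All treated libraries were well above all vehicle libraries, and the log2 change was 2.91 ± 0.28 (adjusted p = 1.1e-05). GCLM and GCLC, which together form the first enzyme on the way to glutathione (a modifier and a catalytic subunit), rose in near step. GCLM (chr1:94350761-94374966, hg19) went from 109, 103 and 114 CPM to 313, 323 and 297 CPM, and GCLC from 57.1, 56.2 and 71.1 CPM to 204, 208 and 204 CPM. SLC7A11, the cystine importer, rose from 40.3 ± 12.4 to 156 ± 27.1 CPM and GSR, glutathione reductase, from 53.4 ± 3.69 to 119 ± 5.23 CPM. In the glutathione list 7 of 11 rose and 3 fell, the latter being GSS, LANCL1 and CBS (1 without combination replicate 1).

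NRF2 itself, NFE2L2, was at 163 ± 7.01 CPM in vehicle and 167 ± 8.37 CPM with both compounds (log2 change 0.04 ± 0.077, adjusted p = 0.743). Of the 10 NRF2 factors and regulators, 6 rose and 1 fell. MAFG and MAFF encode small MAF proteins that bind DNA with NRF2. MAFG went from 88.1, 91.5 and 93 CPM to 312, 257 and 275 CPM (log2 change 1.63 ± 0.0899), and MAFF from 11.4 ± 0.81 to 29.3 ± 5.54 CPM. The member that fell was NFE2L1, a relative of NRF2 that drives proteasome genes, from 270 ± 18.5 to 162 ± 12.1 CPM. KEAP1 rose by 0.53 and BACH1, a repressor at the same sites, by 0.83 on the log2 scale.

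TXNRD1, the cytosolic thioredoxin reductase that chaetocin is known to act on, stood at 697, 739 and 783 CPM in vehicle and 1645, 1775 and 1433 CPM with both (log2 change 1.13 ± 0.139, adjusted p = 6.11e-05). SRXN1, which repairs overoxidised peroxiredoxins, went from 111, 104 and 133 CPM to 437, 428 and 504 CPM (log2 change 1.98 ± 0.161). The rest of the thioredoxin list moved less. Thioredoxin itself, TXN, was at 198 ± 16.3 and 278 ± 44.6 CPM and missed the threshold (log2 change 0.49 ± 0.203, adjusted p = 0.0709), with an adjusted p under 0.05 in 5 of the alternatives. Of its 15 members 4 rose (TXNRD1, SRXN1, GLRX and PRDX2) and 2 fell, the peroxiredoxins PRDX3 and PRDX4. Without the treated libraries numbered 3 these counts were 7 and 5, without combination replicate 1 no member fell, and without combination replicate 3 or vehicle replicate 1 or 2 there was 1.

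Of the 21 tested detoxification genes 15 rose and none fell (1 lower without combination replicate 2). OSGIN1, an oxidative stress-induced growth inhibitor, went from 7.59, 8.83 and 12 CPM to 62.9, 63.8 and 68.4 CPM. ABCC2, an exporter of glutathione conjugates, rose from 1.57, 2.77 and 2.61 CPM to 28.5, 16.8 and 24.3 CPM, a log2 change of 3.32 ± 0.231 (adjusted p = 1.59e-06). The quinone reductase NQO1 rose by 1.09 and the carbonyl reductase CBR1 by 1.32 on the log2 scale. AKR1B10, an aldo-keto reductase, had counts in only 1 vehicle library and stood at 2.6, 1.33 and 3.04 CPM with both compounds. Glutathione peroxidases and other oxidant defence genes, a separate list, were split, with 4 of 12 higher and 4 lower (2 and 2 without combination replicate 1). GPX3, a secreted peroxidase, rose by 1.80 on the log2 scale and CAT, catalase, fell by 0.43. ME1, malic enzyme, a source of NADPH, rose from 72.7 ± 4.02 to 143 ± 5.89 CPM, while the NADPH-making isocitrate dehydrogenases IDH1 and IDH2 had log2 changes of -0.77 and -0.65. In the haem and iron list 5 of 11 rose and 2 fell (BLVRA and TFRC, the transferrin receptor). The fall of these 2 rested on few libraries: 0 fell without combination replicate 3, and 1 without any other single library of the comparison. The spans of MAFG, MAFF, GCLC, SLC7A11, SRXN1, TXNRD1, OSGIN1, ABCC2, CBR1, ME1, ABCB6, NQO1, NFE2L2, NFE2L1, KEAP1, BACH1, LANCL1, GLRX, PRDX2, BLVRA, TFRC and IDH1 overlap other genes of the table.

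NRF2 binds with small MAF proteins at antioxidant response elements, whose core is TGACNNNGC. Among risen oxidant defence genes whose 300 bases around the start hold this motif, the promoters of the 4 with the smallest p are shown. They belong to GCLM, ME1, ABCB6, a porphyrin transporter (29.4 ± 0.645 to 63.6 ± 5.79 CPM), and FECH, which closes haem synthesis (27.1 ± 1.74 to 44.4 ± 1.15 CPM). Each is the 250 bases before the start, on the gene's strand, 5′ to 3′, from RefSeq's GRCh38.p14, a build newer than the hg19 of the counts. Capitals mark the motif on either strand. They lie at chr1:93909431-93909680 (minus strand), chr6:83431052-83431301 (minus), chr2:219218959-219219208 (minus) and chr18:57586703-57586952 (minus).
GCLM: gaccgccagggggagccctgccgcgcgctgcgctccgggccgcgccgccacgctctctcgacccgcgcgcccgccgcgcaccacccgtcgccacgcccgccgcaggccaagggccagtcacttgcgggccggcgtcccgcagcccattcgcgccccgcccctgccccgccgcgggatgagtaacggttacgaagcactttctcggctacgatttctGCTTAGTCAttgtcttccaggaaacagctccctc
ME1: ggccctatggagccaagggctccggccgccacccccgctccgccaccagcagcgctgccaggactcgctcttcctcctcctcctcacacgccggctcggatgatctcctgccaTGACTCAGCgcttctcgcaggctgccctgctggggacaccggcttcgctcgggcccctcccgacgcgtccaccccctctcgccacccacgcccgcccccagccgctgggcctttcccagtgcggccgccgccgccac
ABCB6: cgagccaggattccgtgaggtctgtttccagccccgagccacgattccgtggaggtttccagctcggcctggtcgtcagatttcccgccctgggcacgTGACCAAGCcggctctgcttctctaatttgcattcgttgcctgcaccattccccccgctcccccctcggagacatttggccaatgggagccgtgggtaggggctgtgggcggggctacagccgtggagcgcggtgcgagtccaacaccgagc
FECH: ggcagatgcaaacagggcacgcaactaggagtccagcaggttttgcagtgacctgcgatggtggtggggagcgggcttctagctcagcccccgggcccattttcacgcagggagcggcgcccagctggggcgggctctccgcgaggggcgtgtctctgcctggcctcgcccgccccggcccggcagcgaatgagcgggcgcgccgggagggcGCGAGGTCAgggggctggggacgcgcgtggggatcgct
The motif lay 34 bases before the start in GCLM and 38 in FECH, counting to its first base. The search covered 300 bases, 250 before to 50 after the start, which is longer than the stretch shown. The motif was in 13.6% of all 27305 promoters of that length, in 14.9% of those of the genes tested, in 13 of the 62 oxidant defence genes with a promoter entry (21.0%) and in 9 of the 30 that rose (30.0%). Its letters can overlap the AP-1 motif TGANTCA. The antioxidant motif was in 15.9% of the promoters of all genes called higher and 13.4% of those called lower. A match of letters is a description of the sequence, and binding was not measured.

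Of 27 heat shock genes 15 rose (55.6%, beside 20.1% over all genes), 1 fell (HSPA4L) and 11 were not called. Their median log2 change was 0.35. The list is mostly cytosolic chaperones but also holds the factors HSF1 and HSF2 and the mitochondrial HSPD1 and HSPE1. DNAJB4, a co-chaperone of HSP70 (chr1:78444859-78483648, hg19), was at 16.9, 16.6 and 17.2 CPM in vehicle and 51.5, 41.4 and 43.5 CPM with both (log2 change 1.43 ± 0.0974, adjusted p = 1.55e-06). HSPH1, a nucleotide exchange factor for HSP70, went from 288 ± 1.8 to 466 ± 24.8 CPM, and HSPB8, a small heat shock protein, from 4.22 ± 0.719 to 14.8 ± 5.36 CPM. The inducible HSP70 genes HSPA1A and HSPA1B rose by 1.03 and 0.86 on the log2 scale, but their sequences are nearly identical and the split of reads between them is uncertain. The heat shock element, searched on both strands, was in 5 of 24 promoters of the list (20.8%) and in 0.487% of all promoters (0.391% of those of the genes tested).

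Of 21 chaperones and folding enzymes of the endoplasmic reticulum, 8 fell (38.1%), 3 rose and 10 were not called, with a median log2 change of -0.27. Over all genes 18.3% fell, with 26.6% between 10 and 100 CPM and 36.0% over 100 CPM, so the share that fell was near that of abundant genes. HSPA5, the main chaperone there (chr9:127997132-128003609, hg19), stood at 634, 637 and 645 CPM in vehicle and 312, 354 and 356 CPM with both, a log2 change of -0.91 ± 0.098 (adjusted p = 2.58e-05). CALR, calreticulin, went from 1086, 1071 and 991.6 CPM to 512, 506 and 534 CPM. Treated levels of both genes lay far under all vehicle libraries. The disulfide isomerases PDIA4 and PDIA6 had log2 changes of -0.87 and -0.73. The 3 that rose were DNAJB9, ERN1 and EDEM1. DNAJB4, HSPB8, HSPA4L, HSPA1A, CALR, PDIA6, DNAJB9 and EDEM1 overlap other genes of the table.

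The integrated stress response, in which translation factor eIF2 is phosphorylated and ATF4 made, showed no common direction. Of 20 genes 6 rose (30.0%) and 3 fell (15.0%), beside 20.1% and 18.3% over all genes, and the median log2 change was 0.13. ATF3, a stress-induced factor, went from 5.41, 5.56 and 5.67 CPM to 22.9, 16.8 and 27.7 CPM (log2 change 2.02 ± 0.165), and PPP1R15A, which helps to dephosphorylate eIF2, from 26.2 ± 1.15 to 83.9 ± 21.2 CPM. PSAT1, an enzyme of serine synthesis, ATF5 and DDIT4 were the 3 that fell (5 fell without the treated libraries numbered 3). ATF4 itself had a log2 change of -0.16 and was not called.

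Immediate early genes, which cells switch on within minutes of a stimulus, were measured here at 24 h. Of 25 tested, 16 rose (64.0%, beside 20.1% over all genes), 1 fell and 8 were not called, with a median log2 change of 1.17. Above 1 CPM in vehicle 10 of 19 rose and 1 fell. Under a filter of at least 1 CPM in 6 libraries 14 rose. EGR1, a zinc finger factor (chr5:137801179-137805004, hg19), was at 2.26, 2.57 and 3.95 CPM in vehicle and 42.8, 24.1 and 34.1 CPM with both compounds. FOSB, an AP-1 subunit (chr19:45971253-45978437, hg19), went from 0.88, 1.19 and 1.29 CPM to 21.6, 12.1 and 17.6 CPM. The lowest treated library was replicate 2 in both genes and was still several times the highest vehicle library. Log2 changes were 3.52 ± 0.238 (adjusted p = 1.41e-06) for EGR1 and 3.93 ± 0.238 (adjusted p = 8.89e-07) for FOSB. NR4A1, an orphan nuclear receptor, rose from 0.931 ± 0.0545 to 11 ± 3.61 CPM. FOSB overlaps ERCC1, and the spans of NR4A1, ATF3, ATF5 and DDIT4 overlap other genes of the table. The AP-1 motif TGANTCA, on either strand, was in 1 of 20 promoters of the list (5.0%) in 7.76% of all promoters and in 4.9% of those of the genes tested. The only member that fell was KLF6, a Krüppel-like factor (log2 change -0.45). Without combination replicate 2, 3 members fell, and without combination replicate 3, vehicle replicate 2 or vehicle replicate 3 none did.

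Genes that damp MAP kinase signals were split, with 6 of 17 higher (35.3%) and 4 lower (23.5%), beside 20.1% and 18.3% over all genes. The phosphatases DUSP10, DUSP8 and DUSP5 rose by 1.76, 1.19 and 1.34 on the log2 scale, DUSP10 from 2.03, 1.46 and 1.47 CPM to 6.66, 4.27 and 5.87 CPM. ETV4, an ETS factor downstream of this pathway, fell from 22.2 ± 1.36 to 11.2 ± 1.26 CPM. The spans of DUSP8 and ETV4 overlap other genes.

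**Figure D4:**
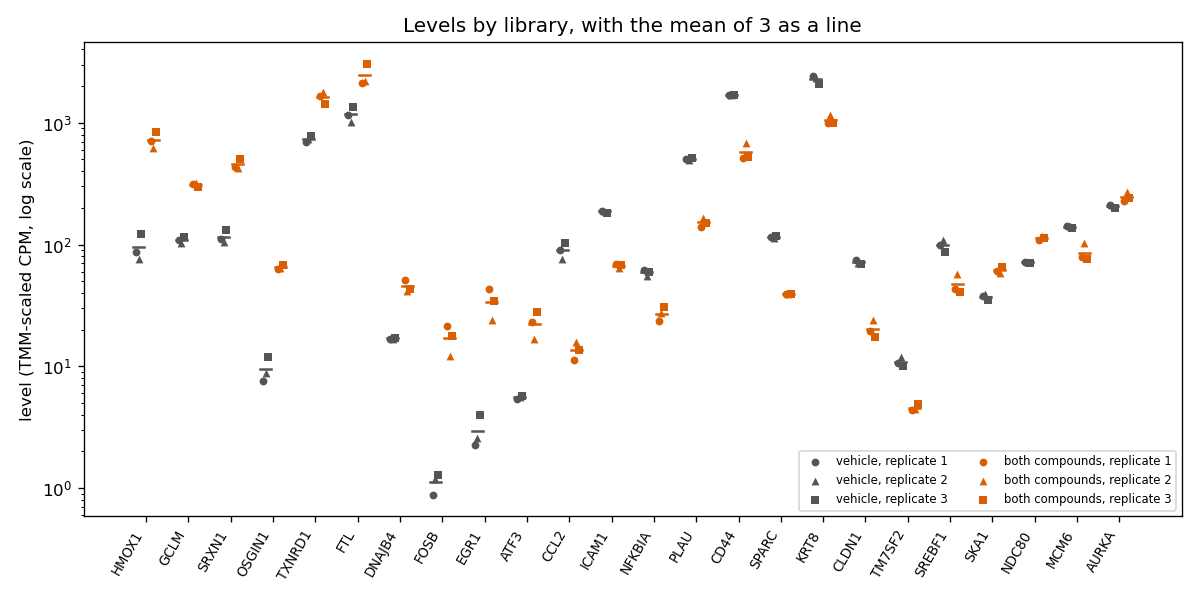
Level of 24 genes in each vehicle library (grey) and each combination library (orange) in CPM on a log axis, with symbols for the replicate number and a line at the mean of 3. No library of 1 group lies within the range of the other for any of the genes, HMOX1 standing at 76.3 to 123 CPM in vehicle and 614 to 834 CPM with both, and AURKA at 199 to 210 and 227 to 271 CPM. Of all genes tested, 27.5% were higher and 27.4% lower without overlap of the libraries, so this separation is not particular to the genes shown.

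Of 13 tested NF-kB factors and feedback inhibitors 7 fell (53.8%, beside 18.3% over all genes), 1 rose (NFKBIZ) and 5 were not called. Their median log2 change was -0.44. BIRC3, an inhibitor of apoptosis and target of NF-kB (chr11:102188215-102210134, hg19), was at 271, 288 and 291 CPM in vehicle and 124, 134 and 97.7 CPM with both (log2 change -1.26 ± 0.128, adjusted p = 1.69e-05). NFKBIA, the inhibitor that holds NF-kB in the cytoplasm, went from 62, 55.4 and 59.7 CPM to 23.4, 27.3 and 30.6 CPM. TNFAIP3, a ubiquitin-editing inhibitor, fell from 15.3 ± 0.664 to 9.19 ± 0.668 CPM and IKBKE, a kinase of the pathway, from 3.93 ± 0.158 to 2.24 ± 0.363 CPM. The main subunits RELA and NFKB1 had log2 changes of 0.11 and -0.14 and were not called. The single rise was lost without combination replicate 1, and 2 members rose without combination replicate 3.

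Secreted and adhesion genes moved both ways, with 6 of 16 lower (37.5%) and 5 higher (31.2%), beside 18.3% and 20.1% over all genes. Above 1 CPM in vehicle 6 of 11 were lower and 2 higher. ICAM1, the adhesion molecule bound by leukocytes (chr19:10381511-10397291, hg19), stood at 188, 190 and 182 CPM in vehicle and 69.2, 64.2 and 67.5 CPM with both (log2 change -1.48 ± 0.086, adjusted p = 6.24e-07). CSF1, a macrophage growth factor, and CXCL1, a neutrophil chemokine, had log2 changes of -1.72 and -2.43. IL18, a cytokine processed by inflammasomes, rose from 46.1, 44.8 and 44.1 CPM to 139, 124 and 174 CPM, and the other risen members were CCL20, IL8, IL1A and IL11. The list's rise held for 3 genes under a filter of at least 1 CPM in 6 libraries. The spans of ICAM1, IL18, TNFAIP3, NFKBIZ, NFKB1 and IKBKE overlap other genes of the table.

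The NF-kB motif, searched on both strands over the same 300 bases, was in 14 of 26 promoters of these 2 lists (53.8%). Not every fallen gene had a promoter entry, and the motif was in 5 of the 8 that did. It was in 6.47% of all 27305 promoters and in 7.36% of those of the genes tested. Some of the promoters that hold it are shown, chosen after their genes' values were seen, since these genes fell: BIRC3 at chr11:102317234-102317483 (plus strand), NFKBIA at chr14:35404750-35404999 (minus), CXCL1 at chr4:73869143-73869392 (plus) and TNFAIP3 at chr6:137867009-137867258 (plus), in GRCh38.p14 from RefSeq, 250 bases before the start, capitals marking the motif.
BIRC3: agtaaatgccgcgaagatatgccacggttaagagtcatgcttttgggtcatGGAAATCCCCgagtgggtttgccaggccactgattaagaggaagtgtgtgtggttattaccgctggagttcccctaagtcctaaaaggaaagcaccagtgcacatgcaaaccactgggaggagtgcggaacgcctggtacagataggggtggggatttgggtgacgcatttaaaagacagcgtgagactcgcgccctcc
NFKBIA: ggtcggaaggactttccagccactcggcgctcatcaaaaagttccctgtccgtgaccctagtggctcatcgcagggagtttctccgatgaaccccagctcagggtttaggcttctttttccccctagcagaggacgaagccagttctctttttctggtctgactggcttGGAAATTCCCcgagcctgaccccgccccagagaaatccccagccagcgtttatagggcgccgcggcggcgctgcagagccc
CXCL1: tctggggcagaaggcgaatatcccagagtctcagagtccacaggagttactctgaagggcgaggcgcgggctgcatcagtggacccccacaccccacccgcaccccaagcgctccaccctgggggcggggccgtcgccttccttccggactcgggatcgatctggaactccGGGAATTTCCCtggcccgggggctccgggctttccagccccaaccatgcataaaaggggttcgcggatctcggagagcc
TNFAIP3: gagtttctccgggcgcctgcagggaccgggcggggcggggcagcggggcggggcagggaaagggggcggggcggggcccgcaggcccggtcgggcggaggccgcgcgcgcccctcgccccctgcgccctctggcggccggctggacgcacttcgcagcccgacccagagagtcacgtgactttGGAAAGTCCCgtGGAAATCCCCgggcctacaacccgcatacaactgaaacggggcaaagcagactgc
TNFAIP3 holds the motif at 2 places, 67 and 55 bases before the start. In CXCL1 the matches on the 2 strands overlap. These genes had log2 changes of -1.26 (BIRC3), -1.12 (NFKBIA), -2.43 (CXCL1) and -0.74 (TNFAIP3). NF-kB was not measured at these promoters.

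Epithelial genes fell more often than they rose, 17 of 35 (48.6%) against 5, with a median log2 change of -0.38. The share that fell stands beside 18.3% over all genes and 36.0% over 100 CPM. The paired keratins KRT8 and KRT18, which form the filaments of simple epithelium, fell alike. KRT8 (chr12:53290977-53343738, hg19) was at 2428, 2349 and 2082 CPM in vehicle and 992, 1168 and 1001 CPM with both, and KRT18 at 1750.0, 1640.0 and 1496 CPM and 681, 812 and 766 CPM. Their log2 changes were -1.12 ± 0.101 and -1.11 ± 0.104, and the annotated spans of this pair overlap. KRT19, a keratin of ducts, fell from 418 ± 19.8 to 178 ± 27 CPM. CLDN1, a tight junction strand protein (chr3:190023490-190040264, hg19), went from 74.8, 71 and 68.8 CPM to 19.3, 23.8 and 17.4 CPM, a log2 change of -1.83 ± 0.114 (adjusted p = 8.96e-07). PERP, a desmosome protein, went from 1170.0, 1079 and 1091 CPM to 372, 484 and 401 CPM. E-cadherin, CDH1, was at 10.9, 12.1 and 8.35 CPM in vehicle and 1.35, 4.67 and 1.41 CPM with both, combination replicate 2 being the highest of the treated (log2 change -2.08 ± 0.468, adjusted p = 0.00359). The 5 that rose were CLDN4, CLDN7, CLDN12, KRT81 and LAMB3, of which all but CLDN4 overlap other genes.

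Of 19 mesenchymal genes 3 rose (SNAI1, SNAI2 and CNN1) and 7 fell (36.8%, beside 18.3% over all genes and 36.0% over 100 CPM). Among those that fell, MMP2, a gelatinase, went from 72.5, 75.4 and 78.8 CPM to 27.7, 32.1 and 31.7 CPM, and TGFBI, a matrix adapter, and LOXL2, a collagen crosslinker, had log2 changes of -1.02 and -1.44. SNAI2, a repressor of E-cadherin, rose from 0.391 ± 0.0957 to 3.11 ± 1.08 CPM.

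Matrix, integrin and semaphorin lists held more genes that fell than rose. In collagens and matrix proteins 13 of 27 fell (48.1%) and 4 rose (median log2 change -0.49). In integrins 7 of 12 fell (58.3%) and 2 rose (-0.51). In semaphorins and neuropilins 8 of 12 fell (66.7%) and 2 rose (-0.65). Over all genes 18.3% fell, with 26.6% between 10 and 100 CPM and 36.0% over 100 CPM. SPARC, a collagen-binding matrix protein (chr5:151040657-151066726, hg19), was at 115, 114 and 118 CPM in vehicle and 39.1, 39.3 and 39.2 CPM with both (log2 change -1.56 ± 0.0769, adjusted p = 2.94e-07). AGRN, the proteoglycan agrin, fell from 184 ± 16.3 to 70.4 ± 12.3 CPM. LAMA3, a laminin chain of epithelial basement membrane, rose from 3.29 ± 0.0309 to 10.7 ± 1.5 CPM; with COL17A1, COL6A3 and THBS2 it made up the 4 that rose. ITGA3, a laminin receptor subunit, went from 425, 474 and 535 CPM to 206, 254 and 204 CPM, ITGB4, its hemidesmosome relative, from 15.8 ± 1.38 to 4.27 ± 1.59 CPM, and ITGB6 rose from 0.236 ± 0.0909 to 2.51 ± 0.744 CPM. SEMA3F, a secreted repellent that binds neuropilins, fell from 24, 27 and 24.4 CPM to 4.96, 7.55 and 4.81 CPM, and PLXND1, a semaphorin receptor, from 122 ± 8.85 to 42.6 ± 13 CPM. Without combination replicate 1, or without vehicle replicate 2, only 1 semaphorin gene rose, and under the stricter filter 5 fell.

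PLAU, the urokinase that activates plasminogen (chr10:75668935-75677255, hg19), stood at 503, 492 and 511 CPM in vehicle and 140, 165 and 151 CPM with both, a log2 change of -1.72 ± 0.0866 (adjusted p = 2.94e-07). CD44, the hyaluronan receptor (chr11:35160417-35253949, hg19), was at 1690.0, 1682 and 1689 CPM in vehicle and 518, 676 and 526 CPM with both. The 3 vehicle libraries were almost equal, and every treated library lay far below them. In the list of proteases, CD44 and hyaluronan genes 10 of 22 rose and 6 fell. MMP3 and MMP13, matrix metalloproteinases, had no count in vehicle; with both compounds MMP3 was at 0.405, 0.472 and 0.476 CPM. The stricter filter left 5 of this list's rises. The spans of PLAU, CD44, SPARC, AGRN, LAMA3, SEMA3F, PLXND1, ITGB4, MMP2, MMP3, THBS2, LOXL2 and CDH1 overlap other genes of the table.

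Of 25 YAP and TGF-beta targets 8 fell (32.0%) and 2 rose, and of 21 actin genes 8 fell (38.1%) and 2 rose. These shares stand beside 18.3% lower over all genes and 36.0% among genes over 100 CPM. CYR61, a matricellular YAP target, fell from 651, 619 and 614 CPM to 278, 368 and 283 CPM, and EDN1, endothelin 1, and AXL, a receptor tyrosine kinase, had log2 changes of -1.09 and -0.94. ANKRD1, another YAP target, rose from 0.311 ± 0.0513 to 2.25 ± 0.452 CPM. Without the treated libraries numbered 3, the genes that rose were 4 in each list. The span of AXL overlaps another gene.

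Of 23 genes of cholesterol synthesis and uptake 14 fell, 9 were not called and none rose (1 rose under the stricter filter), with a median log2 change of -0.60. TM7SF2, a sterol reductase (chr11:64879317-64883856, hg19), was at 10.6, 12 and 10.1 CPM in vehicle and 4.36, 4.42 and 4.95 CPM with both (log2 change -1.25 ± 0.125, adjusted p = 1.41e-05). CYP51A1, lanosterol demethylase, went from 162, 157 and 151 CPM to 77.5, 98.8 and 77.9 CPM, and SQLE, squalene epoxidase, from 125 ± 5.4 to 82.8 ± 9.02 CPM. Of 14 fatty acid genes 9 fell and 1 rose, ELOVL6. SREBF1, the factor that drives these enzymes, went from 99.4, 109.8 and 86.4 CPM to 42.8, 57.7 and 40.8 CPM, a log2 change of -1.07 ± 0.159, and the desaturase FADS2 fell by 0.59. Replicate 2 was the highest of the treated libraries for CYP51A1, SQLE and SREBF1. The spans of TM7SF2, CYP51A1, SREBF1, ELOVL6 and FADS2 overlap other genes of the table.

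Of 60 genes of mitosis and G2/M 31 rose (51.7%, beside 20.1% over all genes), 1 fell (FZR1) and 28 were not called. Their median log2 change was 0.29. Over the alternatives the count that rose was between 23 and 43. SKA1, which couples kinetochores to microtubules (chr18:47901365-47920543, hg19), stood at 37.7, 39.3 and 35.2 CPM in vehicle and 61, 58.7 and 64.8 CPM with both, and NDC80, the kinetochore's microtubule binder, at 72.4, 71.4 and 71.1 CPM and 109, 118 and 113 CPM. Neither gene's groups overlapped, with log2 changes of 0.72 ± 0.0816 (adjusted p = 3.6e-05) and 0.66 ± 0.0965 (adjusted p = 0.000198). CDC25C, a phosphatase that starts mitosis, rose by 0.73 and SPC25 by 0.69. The spans of FZR1, NDC80, CDC25C and SPC25 overlap other genes. Without the treated libraries numbered 3 there were 3 members that fell, and 2 without combination replicate 2 or without vehicle replicate 3.

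AURKA, the target of MLN8237 (chr20:54944445-54967393, hg19), was at 210.0, 209 and 199 CPM in vehicle and 227, 271 and 242 CPM with both compounds. The ranges did not overlap, but the log2 change of 0.26 ± 0.0858 (adjusted p = 0.0298) lost its call without combination replicate 2 or 3 or any 1 vehicle library, with an adjusted p of up to 0.157 over the alternatives. AURKB was at 85.9 ± 6.96 and 85.5 ± 7.54 CPM (adjusted p = 0.973). Of the 18 Aurora kinases and partners 7 rose (38.9%) and 3 fell (16.7%), beside 20.1% and 18.3% over all genes. BORA, which activates Aurora A and overlaps DIS3, rose from 22.4, 22.4 and 21.8 CPM to 33, 35.8 and 36.2 CPM. CDCA8, of the complex that holds Aurora B, rose by 0.47 and the kinesin KIF2C, whose span overlaps another gene, by 0.42 on the log2 scale. The count of 7 was 4 without combination replicate 2, 4, 4 and 3 without vehicle replicates 1, 2 and 3, and 11 without the treated libraries numbered 3, and 1 member fell without combination replicate 1.

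In the list of 50 replication and G1/S genes 17 fell (34.0%), 5 rose and 28 were not called. Over all genes 18.3% fell, with 26.6% between 10 and 100 CPM and 36.0% over 100 CPM. MCM6, a subunit of the replicative helicase (chr2:136597196-136633996, hg19), went from 141, 143 and 138 CPM to 79.4, 102 and 76.5 CPM, a log2 change of -0.71 ± 0.106 (adjusted p = 0.000243). CCNE1, cyclin E, rose from 29.8 ± 0.805 to 42.5 ± 3.69 CPM and DBF4, which activates the origin kinase CDC7, from 73.7 ± 3.52 to 103 ± 2.78 CPM. Without combination replicate 1 there were 7 members that fell and 3 that rose, 11 fell without combination replicate 3, and 10 rose without the treated libraries numbered 3. DBF4 overlaps another gene, as do BRCA2 and CHEK1 below.

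Of 32 DNA repair genes 6 rose (18.8%) and 5 fell (15.6%), near the 20.1% and 18.3% over all genes. The median log2 change was 0.03, and 3 fell without combination replicate 1 or 3. BRCA2, a protein of homologous recombination, went from 20.4, 25.2 and 28.3 CPM to 67.5, 43.6 and 45.3 CPM, and CHEK1, a checkpoint kinase, fell from 107 ± 4.08 to 79.5 ± 10.2 CPM. Of 6 CDK inhibitors tested CDKN2D and CDKN3 rose and CDKN2C fell.

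Among regulators of cell death 12 of 34 rose (35.3%) and 4 fell (11.8%), beside 20.1% and 18.3% over all genes. Their median log2 change was 0.18. CDKN1A, the CDK inhibitor p21, was at 40, 37.9 and 43.4 CPM in vehicle and 58.2, 39.9 and 74 CPM with both. Combination replicate 2 lay within the vehicle range, and the adjusted p was 0.0589 over all libraries and down to 0.00687 over the alternatives, which was its value without that replicate. TNFRSF10D, a decoy receptor for TRAIL, rose from 6.58, 6.79 and 6.85 CPM to 56.2, 32.6 and 49.7 CPM (log2 change 2.78 ± 0.196, adjusted p = 1.71e-06), and PMAIP1, the death-promoting NOXA, from 7 ± 1.46 to 16.8 ± 1.94 CPM. BIRC2, an inhibitor of apoptosis, fell by 0.56 on the log2 scale. The 4 regulators that fell were 2 without combination replicate 1 and 9 without the treated libraries numbered 3.

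SUV39H1, the enzyme chaetocin is known to block, was at 46.5, 46.6 and 47.5 CPM in vehicle and 32.6, 43 and 36.3 CPM with both (log2 change -0.33 ± 0.101, adjusted p = 0.0206), and the call was lost without combination replicate 1 or 3. EHMT2, or G9a, fell from 58.4, 61 and 57.5 CPM to 40.7, 45.2 and 39.9 CPM (log2 change -0.49 ± 0.0994, adjusted p = 0.00183). EHMT1, its partner, was at 43 ± 3.34 and 43.6 ± 3.36 CPM (adjusted p = 0.904). SUV39H2 and SETDB1 had log2 changes of 0.24 ± 0.0806 (adjusted p = 0.0315) and 0.31 ± 0.0923 (adjusted p = 0.0181), both lost under several alternatives. Of 25 genes in the list of H3K9 methylation 6 rose (24.0%) and 4 fell (16.0%), near the 20.1% and 18.3% over all genes. Without combination replicate 1 or vehicle replicate 3, 3 rose. KDM4D, an H3K9 demethylase, rose from 1.55, 1.68 and 1.41 CPM to 4.61, 3.76 and 5.22 CPM. The spans of SUV39H1, SUV39H2, EHMT1, EHMT2 and SETDB1 overlap other genes.

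Of 29 Polycomb and DNA methylation genes 6 rose (20.7%) and 7 fell (24.1%), near the shares of 20.1% and 18.3% over all genes. KDM6B, a demethylase of the Polycomb mark on H3K27, rose from 7.61, 10.3 and 11.4 CPM to 59, 33.7 and 48.8 CPM (log2 change 2.27 ± 0.239, adjusted p = 2.14e-05), and TET3 from 19.4 ± 2.93 to 38.8 ± 7.66 CPM. RING1, a Polycomb subunit, had a log2 change of -0.88. H1F0, the linker histone of resting cells (chr22:38201114-38203442, hg19), was at 137, 138 and 139 CPM in vehicle and 58.8, 66.3 and 62.8 CPM with both, and H1FX, whose span overlaps another gene, fell from 72.6 ± 4.52 to 38.8 ± 4.33 CPM. In the linker and variant histone list 6 of 15 fell and 3 rose. Of 18 tested replication-dependent histone genes, of 30 listed, 12 rose and none fell, as HIST1H4H from 2.35, 2.48 and 3.11 CPM to 8.78, 6.66 and 11.4 CPM. Copies of these histone genes are close in sequence, so the split of reads between them is uncertain, and how RNA was selected for the libraries is not analysed here.

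Many genes with next to no counts in vehicle had counts with both compounds. Of 310 tested genes with at most 3 counts over the vehicle libraries, 306 rose, 152 of them protein-coding and 60 lincRNA, a count that the filter largely fixes. VWF, the clotting factor made by endothelium, had no count in vehicle and 555 counts with both compounds (3.84, 1.19 and 4.08 CPM), at least 163-fold higher when vehicle is set at 3 counts in all, the limit that a count of 0 allows. SSX1, a cancer-testis antigen, had none in vehicle and 434 (2.83, 1.54 and 2.79 CPM), at least 127-fold higher, and ANO2, a calcium-activated chloride channel, none and 358, at least 105-fold higher. The floors cover counting error only. RP1-27K12.2, which lies within the span of GCLC, had 3 counts in vehicle and 713 with both, and TNFRSF8 and ASB5 had 2 each in vehicle and 386 and 387 with both. Replicate 2 was the lowest of the treated libraries in all 6. VWF, ANO2 and TNFRSF8 overlap other genes, as do MUC1, PDX1 and SOX9 below.

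Of 61 cancer-testis and germline genes 23 were tested, of which 13 rose and none fell; above 1 CPM in vehicle 3 of 9 rose. DMC1, a meiotic recombinase, went from 3.61, 3.41 and 3.86 CPM to 9.21, 7.17 and 9.93 CPM. Of 11 tested mucins 7 rose and 1 fell, the one that fell being MUC1, from 27.6 ± 0.534 to 18.6 ± 1.39 CPM. Among pancreatic and foregut factors 4 of 16 rose and 5 fell. PDX1, a master factor of the pancreas, fell from 4.86, 4.94 and 4.76 CPM to 1.91, 2.71 and 2.11 CPM and SOX9, a ductal factor, from 132 ± 3.27 to 93.2 ± 10.3 CPM. Under the stricter filter 6 germline genes, 2 mucins and no foregut factor rose, and without combination replicate 1 or 3 there were 3 foregut factors that fell.

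Marker lists for other cell types moved beside these genes. The 6 endothelial markers in the table summed to 0.822 to 1.35 CPM in vehicle and 7.64 to 11.3 CPM with both, through VWF and ERG, an ETS factor (1.02 ± 0.231 to 6.25 ± 0.449 CPM), the 2 that passed the filter, and both rose. CDH5, KDR, TEK and CLDN5, which also define endothelium, held 6, 66, 3 and 14 counts over the 3 treated libraries. The 7 immune markers summed to 156 to 182 CPM in vehicle and 169 to 235 CPM with both, almost all of it CD68, a lysosomal protein that many cells make. PTPRC, the leukocyte antigen CD45, had no count in vehicle and 122 with both, and CD3E had 2. The spans of ERG, CD68, PTPRC and KRT7 overlap other genes. The 7 fibroblast markers summed to 63.7 to 79.9 CPM in vehicle and 32.5 to 48.2 CPM with both, nearly all COL1A1, and the 8 ductal markers to 4196 to 4804 and 1961 to 2297 CPM, with 7 of the 8 lower and KRT7 not called. The acinar and endocrine lists summed to at most 0.187 and 0.442 CPM in any treated library.

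**Figure D5:**
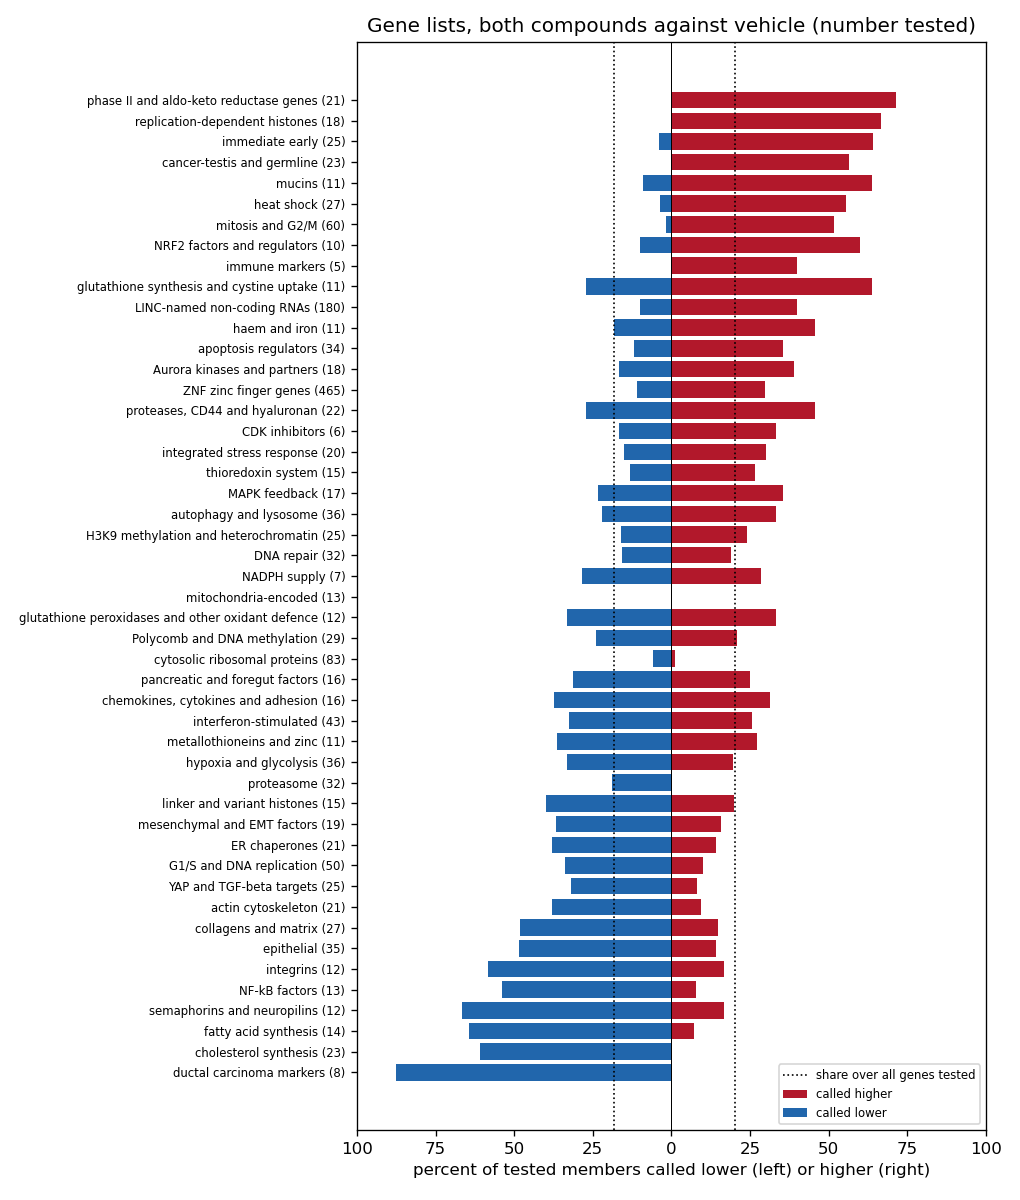
Percent of the tested members of gene lists that were called lower (blue, left) or higher (red, right) with both compounds, with the number tested in brackets and dotted lines at the shares over all genes, 18.3% lower and 20.1% higher. Detoxification, histone and immediate early genes lie at the top with over 60% higher, and cholesterol synthesis and ductal markers at the bottom with none higher.

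Of 36 hypoxia and glycolysis genes 7 rose (19.4%) and 12 fell (33.3%), beside 20.1% and 18.3% over all genes and 36.0% lower among genes over 100 CPM. HKDC1, a hexokinase domain protein, rose from 0.65, 0.711 and 1.4 CPM to 17, 12 and 16.6 CPM (log2 change 4.03 ± 0.281, adjusted p = 1.59e-06), NDRG1 from 5.17 ± 0.571 to 26.6 ± 8.19 CPM and the glucose transporter SLC2A1 from 40.1 ± 2.52 to 80 ± 6.63 CPM. SLC30A1, which exports zinc (chr1:211744910-211752084, hg19), fell from 55.4, 57.2 and 54.2 CPM to 9.96, 21 and 5.82 CPM, and MT2A and MT1E, zinc-binding metallothioneins close in sequence to each other, had log2 changes of -1.05 and -1.81. Of 11 genes tested in that list 4 fell and 3 rose. GLA, a lysosomal galactosidase, rose from 71.6 ± 2.48 to 211 ± 31.8 CPM and OPTN, an autophagy receptor, fell by 0.97 on the log2 scale, in a list of 36 with 12 higher and 8 lower. The spans of HKDC1, GLA and OPTN overlap other genes. Of 32 proteasome genes 6 fell (18.8%, near the 18.3% of all genes) and none rose (1 rose under the stricter filter), with 2 lower without combination replicate 1 and 14 without the treated libraries numbered 3. Of 13 mitochondria-encoded protein genes none was called by edgeR (1 was lower without the treated libraries numbered 3).

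Cytosolic ribosomal protein genes turned on which libraries were used. Of 83 tested, 5 fell and 1 rose (RPL3L, a muscle form, from 0.195 ± 0.107 to 4.12 ± 2.21 CPM), with a median log2 change of -0.26. RPL4, whose span overlaps another gene, fell from 1210.0, 1155 and 1171 CPM to 688, 910.5 and 780 CPM. Without the treated libraries numbered 3, 54 fell. In a fit of the 6 libraries alone 31 fell, and without combination replicate 1 or vehicle replicate 1 there were 2.

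Against each compound alone the combination differed in unlike ways. Compared with MLN8237 alone, 5310 genes were higher and 5177 lower (45.9% of those tested, and 53.1% at an unadjusted p under 0.05). Compared with chaetocin alone no gene passed by edgeR, although 2677 genes (11.7%) had an unadjusted p under 0.05. DESeq2 called 296 genes there and limma-voom 1. Without combination replicate 2 edgeR called 573, 281 higher and 292 lower with both compounds.

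Values for single genes lay between those statements. EGR1 averaged 33.7 ± 9.39 CPM with both compounds, 12.7 ± 1.39 CPM with chaetocin and 4.26 CPM with MLN8237 (adjusted p = 0.165 against chaetocin). MAL averaged 11.6 CPM with both, 2.52 ± 1.13 CPM with chaetocin and 0.0854 CPM with MLN8237, a log2 difference from chaetocin of 2.20 ± 0.457 (adjusted p = 0.203). MCM6 stood at 86 ± 14 CPM with both, 122 ± 9.47 CPM with chaetocin and 124 CPM with MLN8237 (adjusted p = 0.203 against chaetocin). HMOX1, by contrast, was at 717 ± 110 CPM with both and 835 ± 188 CPM with chaetocin (adjusted p = 0.779), and CCL2 at 13.5 ± 2.3 and 16.3 ± 2.48 CPM (log2 difference -0.27 ± 0.212, adjusted p = 0.657). AURKA was at 245 ± 9.13 CPM with MLN8237, 204 ± 10.1 CPM with chaetocin and 247 ± 22.7 CPM with both. EGR1, MAL and MCM6 were named here after their values were seen, and an adjusted p over 0.05 does not show that the combination and chaetocin acted alike.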

How the data were processed

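RNA from 12 PANC-1 libraries was sequenced, 3 each with DMSO, 30 nM chaetocin, 90 nM MLN8237 and both compounds for 24 h. The authors deposited raw read counts per gene for 57773 genes, as the file headers name them, and RPKM values per gene, which were used here only for marker genes; neither was pooled over replicates. The submitters' processing notes name CASAVA 1.9, TopHat 12.0.6 (version as written there), HTSeq and the build hg19, without roles or order; no source used here states how strand was counted.

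Of the genes, 16155 had no count and 22831 passed edgeR's filter on low counts. Counts were scaled by TMM and tested with edgeR 4.0.16 (quasi-likelihood, all 4 groups in 1 model, R 4.3.3), with Benjamini-Hochberg adjustment over all genes tested. Alternatives used DESeq2 1.42.0, limma 3.58.1 (voom), RLE scaling, no filter, a stricter filter (1 CPM or more in 6 or more libraries), the compared groups alone, a replicate block, a 2-fold minimum and each library left out. Leaving out the treated libraries numbered 3 was chosen after seeing the data. The scripts were tested on simulated data.

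Totals of 49439795 to 58671039 counts per library limit only low genes; the median standard error of a log2 change was 0.179. Genes were named by rule: the 12 largest changes each way at 5 CPM or more without overlap of libraries, the 5 largest CPM differences each way, from each list the 4 members of smallest p, the 6 highest genes with at most 3 vehicle counts, and AURKA, AURKB, SUV39H1, SUV39H2, EHMT1, EHMT2, SETDB1, TXNRD1, TXN and CDKN1A. Some genes taken by the rule are not reported here. Other list members, the CXCL1 promoter among them, were named after their values were seen. The comparison and the gene lists were chosen with earlier results of these data known. Y-linked genes and XIST were left out of the naming rule.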

Additional observations from a re-analysis of the deposited data

How the results depend on the processing

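The 8780 genes called with both compounds against vehicle were 8685 with RLE scaling, 8789 without a filter, 6700 under the stricter filter, 9367 by DESeq2 and 8872 by limma-voom, and 6564 to 9094 with each library left out (higher 3593 to 4795, lower 2971 to 4299). A 2-fold minimum left 3406 (2523 higher, 883 lower), and against MLN8237 3846 (2790 and 1056), where leaving out each library gave 7659 to 10541 (higher 3942 to 5310, lower 3717 to 5246). Against chaetocin the count of 0 became 36 without a filter (27 and 9), 296 by DESeq2 (196 and 100), 1 by limma-voom (1 higher), and 0 to 573 with each library left out (higher 0 to 281, lower 0 to 292), the 573 being without combination replicate 2; the cause was not tested. Of 232 named genes 220 were called, and 207 in every one of 14 settings. No gene called in both the reported fit and an alternative changed direction.

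The rule for treating replicate numbers as pairs, that every same-numbered pair correlate above 0.1, was not met. Such a rule cannot exclude a structure shared by some replicate numbers. For replicates 1, 2 and 3, deviations correlated at -0.153, 0.0636 and 0.0936 between vehicle and the combination. They correlated at 0.167, -0.00699 and 0.462 between chaetocin and the combination, and at 0.318, 0.093 and 0.436 between MLN8237 and the combination. Combination replicate 3 correlated most with replicate 3 of each single compound. With the replicate block, 10024 genes were called against vehicle (5084 higher, 4940 lower), 0 against chaetocin and 11768 against MLN8237.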

Other observations

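Counted at all levels, long non-coding RNAs and zinc finger genes moved upward more often than down. Over all genes tested 20.1% rose and 18.3% fell. Of 1234 lincRNA genes tested, 34.6% rose and 6.65% fell, and of 372 with over 1 CPM in vehicle 22.3% rose and 17.2% fell, so much of the excess lay among low genes. Of 180 RNAs named LINC, 72 rose and 18 fell (29 rose under the stricter filter). Of the 72 LINC RNAs with over 1 CPM in vehicle, 18 rose and 17 fell, so their excess lay among low genes. LINC01024 went from 4.19, 4.71 and 3.54 CPM to 13.9, 9.53 and 13.4 CPM, and its span overlaps PURA. Of 465 ZNF genes, which encode zinc finger proteins and mostly bind DNA, 138 rose and 51 fell, with a median log2 change of 0.14 (32 fell under the stricter filter and without combination replicate 1 or 3). Of the 438 ZNF genes with over 1 CPM in vehicle, 125 rose and 49 fell. ZNF165 went from 4.88, 6.04 and 5.58 CPM to 20.2, 15 and 23.6 CPM, and ZNF467 fell from 3.76 ± 0.233 to 0.785 ± 0.195 CPM.

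Interferon-stimulated genes showed no common direction when counted at all levels. Of 43 tested, 11 rose (25.6%) and 14 fell (32.6%), beside 20.1% and 18.3% over all genes. Their median log2 change was -0.15. Of the 38 with over 1 CPM in vehicle, 6 rose and 14 fell, so falls outnumbered rises there. Among all genes tested, 26.6% fell between 10 and 100 CPM and 36.0% over 100 CPM. TAP1, which pumps peptides for antigen presentation, went from 101, 103 and 96.2 CPM to 49.3, 58.3 and 49.6 CPM, and its neighbour PSMB9, an immunoproteasome subunit whose span overlaps it, from 19.5 ± 3.88 to 8.51 ± 0.497 CPM. HERC5, a ligase that attaches ISG15, rose from 6.1 ± 0.67 to 11.6 ± 0.932 CPM.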
